A study of Mus musculus with 6 samples.

Results

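Acid-base transport genes were followed in cholangiocytes, the epithelium of the bile ducts, from wild-type mice (WT) and from a mouse model of polycystic liver disease (PLD). The genes are the carbonic anhydrases (symbols Car with a number) and the ion exchangers and cotransporters of the Slc4a, Slc9a, Slc12a and Slc26a families. They were chosen by symbol alone, as protein-coding genes of these 5 families, and the rule uses no measured value. The rule gave 55 genes among the 55401 genes of the tables, namely 16 of the Car family, 10 Slc4a, 9 Slc9a, 9 Slc12a and 11 Slc26a. Of these, 40 had enough reads to be tested and 15 did not.

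The WT and PLD groups held 3 libraries each of polyadenylated RNA, all made 3 months after tamoxifen. Tamoxifen commonly switches on an inducible Cre recombinase, but the labels name neither a Cre line nor the gene altered in PLD, nor the strain, age or sex of the animals. They give the time after tamoxifen for both groups and do not say whether WT animals carried Cre. Cells were taken from digested bile duct trees with magnetic beads against EpCAM, an epithelial surface protein. Whether each library stands for its own animal is not said in the labels, so p-values reflect only how far these libraries spread, in part perhaps for technical reasons.

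Carbonic anhydrases interconvert carbon dioxide and bicarbonate. Slc4 proteins carry bicarbonate in exchange for chloride or together with sodium, Slc9 proteins exchange sodium for protons, Slc12 proteins carry chloride together with sodium or potassium, and Slc26 proteins carry chloride, bicarbonate, sulphate and other anions. In bile ducts, bicarbonate secretion makes bile alkaline and is classically described as chloride leaving through an apical channel and returning in exchange for bicarbonate through the exchanger encoded by Slc4a2, and fluid secretion into liver cysts is thought to use the same machinery.

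Libraries held between 15768561 and 16710548 counted reads, so 3 reads, taken as the floor, stand for 0.180 to 0.190 CPM (counts per 1000000 reads). All levels below are CPM after TMM scaling, edgeR's correction for library composition. The 12 cholangiocyte markers examined were present in all libraries and higher in PLD, with a summed level of 9390 to 13712 CPM in WT and 32377 to 44903 CPM in PLD. The 12 endothelial markers were lower in PLD (summed 5618 to 7364 CPM in WT, 465 to 812 CPM in PLD), as were 10 of 12 fibroblast, stellate and smooth muscle markers (8228 to 13450 CPM against 1727 to 4542 CPM). In such bulk RNA, fewer cells of a type and less RNA per cell cannot be told apart.

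WT replicate 1 stood apart from the other WT libraries for several of these genes. Among the 41 acid-base genes with a mean of at least 1 CPM, 7 were more than 3 times higher in WT replicate 1 than in either other WT library, against 168 of 14295 genes (1.18%) overall. The 7 were Car9, Slc4a4, Slc9a2, Slc9a3, Slc9a4, Slc26a3 and Slc26a9. PLD replicate 1 stood apart in the same sense for 3 of the 41 (Slc9a3, Slc26a3 and Slc26a9) and for 100 genes (0.700%) overall. The digestive enzyme gene Ctrb1 was also at 92.0 CPM in WT replicate 1 and between 0.371 and 1.24 CPM elsewhere. Of the other pancreatic genes, Cela1 had 6.73, 2.06 and 3.34 CPM in WT and 5.92, 6.83 and 5.40 CPM in PLD, Prss2 and Pnlip were at 0 in all libraries, and Cpa1 reached at most 0.0590 CPM. The 8 pancreatic genes, chosen after values were seen, summed to 3.83 to 99.5 CPM in WT and 6.85 to 8.48 CPM in PLD, and neither of the 2 tested passed. Of 10 enterocyte genes chosen likewise, 3 were tested and 1 was lower in PLD (summed 118 to 169.5 CPM in WT and 46.5 to 81.2 CPM in PLD). Anpep had 129, 103 and 127 CPM in WT and 28.6, 50.4 and 48.2 CPM in PLD, Vil1 had 39.0, 13.3 and 18.7 CPM in WT and 15.8, 27.0 and 29.5 CPM in PLD, Cdx1 was at 0, and Sis, Alpi and Fabp6 were at 0.0610 CPM or less. The part of either list in these values was not tested. Results that rest on replicate 1 are given with and without it. The values of the 7 genes themselves singled out WT replicate 1. For these genes, p-values without that library are descriptive only.

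Of the 40 tested genes, 7 were higher and 17 lower in PLD at an edgeR adjusted p under 0.05, and 16 did not pass. Across all 15334 tested genes 55.4% passed, 27.0% higher and 28.4% lower. The 24 calls are 60.0% of the tested acid-base genes, near that background. The 17 lower genes are 42.5% and the 7 higher genes 17.5% of them, and these shares were not tested against the background. The median log2 fold change was -0.78 over the 40 and 0.0060 over all tested genes. In 26 of the 40 the PLD libraries all lay on one side of the WT libraries, above in 7 and below in 19, and the same held for 66.2% of all tested genes. These 40 are the genes kept by a filter on low counts and not the whole families. Car3, Slc26a7 and Slc26a9 were kept only because of their WT level. They reached the filter's cutoff in all 3 WT libraries but in 0, 1 and 1 PLD libraries. The lower calls of Car3 and Slc26a7 thus concern genes kept through the group where they were high. Among the 29 genes with a mean of at least 5 CPM, 7 were higher, 11 lower and 11 not called, with a median of -0.056.

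The higher genes were Car4, Car12, Car13, Slc4a9, Slc4a11, Slc12a2 and Slc26a2. By family, 3 carbonic anhydrases were higher and 4 lower of 11 tested, 2 Slc4a genes were higher and 3 lower of 7, 1 Slc12a gene was higher and 3 lower of 7, and 1 Slc26a gene was higher and 4 lower of 7. None of the 8 tested Slc9a genes was higher, and 3 were lower. The plot of fold changes shows 37 of the 40.

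**Figure D1:**
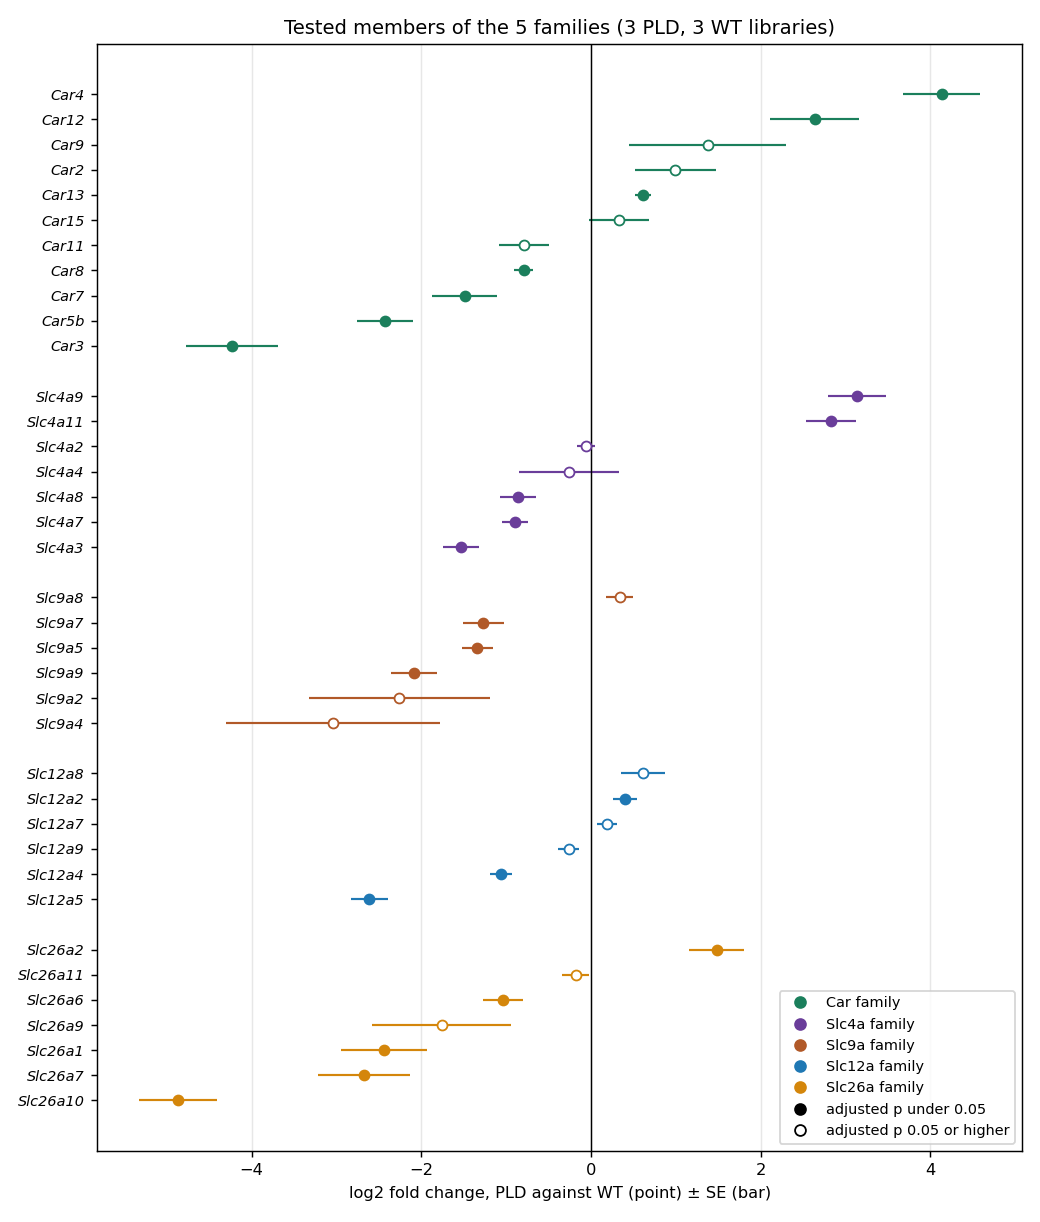
Log2 fold change of PLD against WT (horizontal axis, point) with its standard error (bar) for 37 of the 40 tested genes, grouped by family; filled points passed an edgeR adjusted p of 0.05. Car4 at 4.13 and Slc26a10 at -4.87 are the extremes. The widest bars, of Slc9a4, Slc9a2, Car9, Slc26a9 and Slc4a4, belong to genes in which WT replicate 1 stood apart. Those of Car3 and Slc26a7 (SE 0.55 each) are nearly as wide as that of Slc4a4 (0.59), though WT replicate 1 did not stand apart for them.

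**Figure D2:**
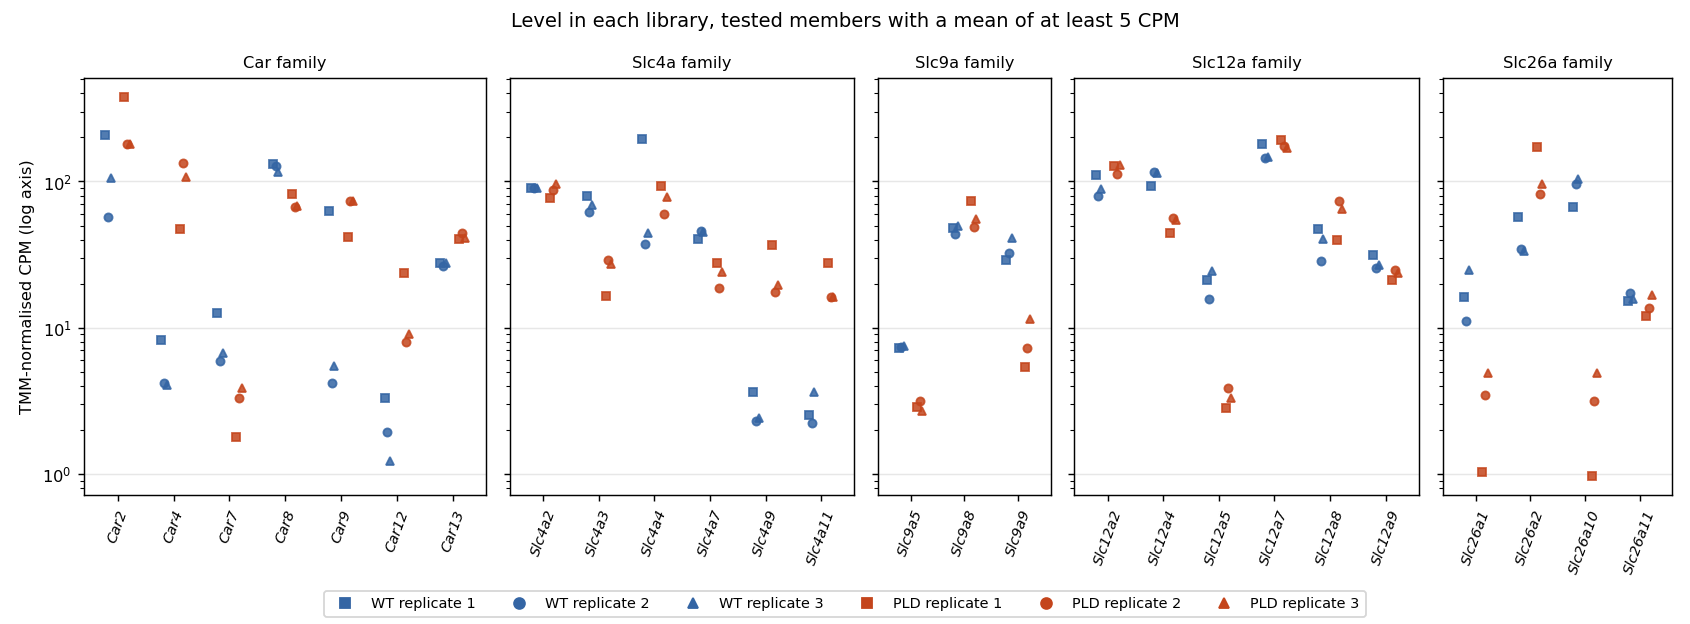
TMM-normalised CPM (log axis) of 26 of the 29 tested genes with a mean of at least 5 CPM, one marker per library, WT in blue and PLD in red, with replicates told apart by marker shape. The Car4, Slc4a9 and Slc4a11 libraries separate upwards in PLD, those of Slc12a5, Slc9a9 and Slc26a10 separate downwards, and those of Slc4a2 lie together.

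The carbonic anhydrase with the largest rise was Car4, whose product is tethered to the outer cell surface by a lipid anchor (ENSMUSG00000000805.18, mm10 chromosome 11, 84957786 to 84966044). It had 8.20, 4.19 and 4.08 CPM in WT replicates 1 to 3 and 47.6, 134 and 108 CPM in PLD replicates 1 to 3. Every PLD library lay above every WT library, and PLD replicate 1 was the lowest of its group while WT replicate 1 was the highest of its own. The mean rose from 5.49 ± 2.35 to 96.6 ± 44.5 CPM (SD, n = 3 libraries each), 17.6-fold, with a log2 fold change of 4.13 ± 0.45 (SE, edgeR adjusted p = 0.000317). Without both libraries numbered 1 the log2 fold change was 4.87. Per kilobase of exon model, which allows levels of different genes to be compared, Car4 went from 2.79 to 49.1 CPM per kb, from 23rd to 2nd among the 55 genes.

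Car12, a transmembrane carbonic anhydrase with its active site outside the cell, had 3.30, 1.95 and 1.24 CPM in WT and 23.6, 7.99 and 9.07 CPM in PLD. All PLD values were above the WT values, and PLD replicate 1 was well above the other PLD libraries. The rise was 2.64 ± 0.52 on the log2 scale (edgeR adjusted p = 0.00417), or 1.98 without PLD replicate 1. Car13, a cytosolic enzyme (mm10 chromosome 3, 14641727 to 14663002), had 27.8, 26.3 and 27.9 CPM in WT and 40.5, 44.2 and 41.3 CPM in PLD, with little spread in either group and no overlap. The rise of 0.62 ± 0.10 on the log2 scale passed (edgeR adjusted p = 0.00138).

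Car2, the fast cytosolic enzyme, was the most abundant of the 55 genes per kb in both groups, at 50.8 CPM per kb in WT and 101 in PLD. It had 206, 56.9 and 106 CPM in WT and 376, 181 and 179.5 CPM in PLD, and the groups overlapped because WT replicate 1 lay above PLD replicates 2 and 3. The log2 fold change of 0.99 ± 0.48 did not pass (edgeR adjusted p = 0.113). It was 1.59 without WT replicate 1 (edgeR adjusted p = 0.0169), 0.56 without PLD replicate 1 (edgeR adjusted p = 0.324) and 1.15 without both libraries numbered 1 (edgeR adjusted p = 0.00227).

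Car9, a transmembrane enzyme best known as a gene switched on by low oxygen, had 63.2, 4.19 and 5.44 CPM in WT and 41.9, 73.1 and 73.9 CPM in PLD (mm10 chromosome 4, 43506966 to 43513729). WT replicate 1 was within the PLD range, whereas the other WT libraries were far below every PLD library. With all libraries the log2 fold change was 1.37 ± 0.92 (edgeR adjusted p = 0.237). Without WT replicate 1 it was 3.71 (edgeR adjusted p = 0.000193), and without both libraries numbered 1 it was 3.93 (edgeR adjusted p = 1.48e-07). Car9's own values helped single out WT replicate 1, and leaving out both was added after the data were seen. Neither p-value is thus independent support for a rise. An antisense gene, Gm12454, shares 214 exon bases with Car9 and had a mean of 1.124 CPM.

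Carbonic anhydrases that fell were Car3, Car5b, Car7 and Car8. Car8, an acatalytic relative known as a binding partner of the inositol trisphosphate receptor, had 132, 128 and 117 CPM in WT and 82.7, 66.8 and 68.3 CPM in PLD. The groups were apart, and the fall was 0.79 ± 0.12 on the log2 scale (edgeR adjusted p = 0.00104). Car7, a cytosolic enzyme best known from neurons, had 12.6, 5.90 and 6.73 CPM in WT and 1.79, 3.29 and 3.84 CPM in PLD. WT replicate 1 was the highest of its group, and no values overlapped. It fell by 1.49 ± 0.38 on the log2 scale (edgeR adjusted p = 0.0129), while the log2 fold change without both libraries numbered 1 was -0.82.

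The cytosolic Car3, abundant in muscle and fat, averaged 6.84 CPM in WT and 0.357 CPM in PLD and fell (log2 fold change -4.23, or -3.57 without WT replicate 2), and the mitochondrial Car5b fell from 5.54 to 1.02 CPM (-2.43). The acatalytic Car11 (3.13 and 1.81 CPM, -0.79) and the lipid-anchored Car15 (0.681 and 0.854 CPM, 0.33) did not pass. Car15 shares 65.7% of its exon bases with Gm20518 on the same strand, and reads in shared exons could have been lost to both, which makes its value uncertain. Car1, of red cells, and the secreted salivary enzyme Car6 had no reads in any library, and Car5a, Car10 and Car14 had at most 3, 4 and 7 reads in a library.

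The makeup of the carbonic anhydrase family differed between groups. Its summed level per kb was 172, 80.8 and 97.1 CPM per kb in WT and 242, 215 and 201 CPM per kb in PLD. Car4 made up 2.14 to 2.64% of that sum in WT and 10.02 to 31.8% in PLD, and Car8 19.9 to 41.2% in WT and 8.06 to 8.89% in PLD. The ratio of Car4 to Car2 per kb was 0.0489, 0.0906 and 0.0474 in WT and 0.156, 0.915 and 0.740 in PLD. Every PLD library had more Car4 relative to Car2 than any WT library, with PLD replicate 1 the nearest to WT.

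**Figure D3:**
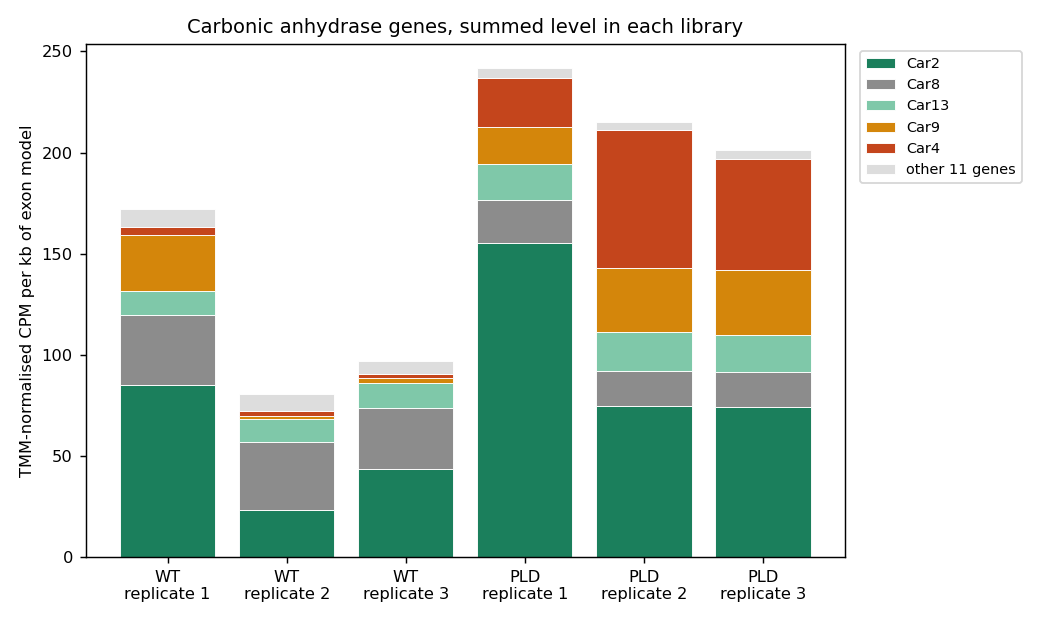
Summed level of the 16 carbonic anhydrase genes in each library, in TMM-normalised CPM per kb of exon model, stacked by gene with the 11 lesser genes together. The Car4 block is thin in the WT libraries and thick in PLD replicates 2 and 3, and the Car9 block of WT replicate 1 resembles those of PLD.

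The start regions of Car4 (largest rise), Car7 (largest fall among carbonic anhydrases with a mean of at least 5 CPM) and Car9 (chosen after its values were seen, for its known link to oxygen) are shown to let the genes that moved most be compared. Each is the RefSeq window of GRCm38.p6, the build also called mm10, from 250 bases before to 50 after the gene's start, written on the gene's own strand. RefSeq windows were at hand for 38 of the 55 genes. Car7 had 3 such windows and Slc12a5, shown further below, had 2. Only the window nearest the start of the gene model was read, so motifs in the others are not covered. Capitals mark matches, on either strand, to the TATA box TATAAA, the GC box GGGCGG, the cAMP response element TGACGTCA, the AP-1 element TGANTCA and the hypoxia response core ACGTG, none of which lies within another. Car4 at chr11:84957504-84957803, plus strand, held a TATA box and a hypoxia core, Car7 at chr8:104534450-104534749, plus strand, held none of the motifs, and Car9 at chr4:43506776-43507075, plus strand, held an AP-1 element and a hypoxia core.
Car4: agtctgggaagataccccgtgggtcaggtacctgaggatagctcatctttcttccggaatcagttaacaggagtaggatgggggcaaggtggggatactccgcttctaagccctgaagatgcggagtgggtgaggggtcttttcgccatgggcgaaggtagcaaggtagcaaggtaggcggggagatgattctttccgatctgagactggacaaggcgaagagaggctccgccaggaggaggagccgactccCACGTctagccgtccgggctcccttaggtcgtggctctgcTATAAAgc
Car7: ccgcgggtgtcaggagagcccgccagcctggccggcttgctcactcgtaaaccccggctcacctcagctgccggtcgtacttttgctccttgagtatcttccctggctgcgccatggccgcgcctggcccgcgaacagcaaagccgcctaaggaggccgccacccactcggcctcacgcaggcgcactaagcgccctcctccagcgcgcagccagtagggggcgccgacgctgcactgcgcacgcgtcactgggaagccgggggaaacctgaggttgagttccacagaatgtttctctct
Car9: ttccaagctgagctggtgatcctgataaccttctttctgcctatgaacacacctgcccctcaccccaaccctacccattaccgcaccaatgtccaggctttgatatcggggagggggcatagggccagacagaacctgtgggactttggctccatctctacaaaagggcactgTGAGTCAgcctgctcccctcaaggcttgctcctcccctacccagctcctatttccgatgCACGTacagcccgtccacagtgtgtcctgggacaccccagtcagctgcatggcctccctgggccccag
Of 32851 windows of this length in the table, 13.6% held the TATA letters, 35.7% the GC box, 1.79% the cAMP response element, 7.81% the AP-1 letters and 19.6% the hypoxia core. The 3 windows held 15, 28 and 5 CG dinucleotides in that order, where the median window held 7. Both Car4 matches lay after the gene's start, the TATA letters at base 42 and the hypoxia core at base 2. A match describes letters only, and binding was not measured.

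The exchanger classically tied to biliary bicarbonate secretion did not differ between groups beyond its spread. Slc4a2, encoding the chloride-bicarbonate exchanger AE2 (ENSMUSG00000028962.14, mm10 chromosome 5, 24423837 to 24440950), had 90.3, 89.6 and 90.7 CPM in WT and 76.6, 87.1 and 96.5 CPM in PLD. The WT values lay inside the PLD range. The log2 fold change was -0.056 ± 0.11 (edgeR adjusted p = 0.672), and its sign turned to 0.025 without both libraries numbered 1. Slc4a2 shares 13.7% of its exon bases with Fastk on the other strand, which had a log2 fold change of -0.16.

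A related exchanger gene, Slc4a3, whose product AE3 is known from heart and brain (mm10 chromosome 1, 75546266 to 75562172), was lower in PLD. It had 79.4, 61.9 and 69.0 CPM in WT and 16.5, 29.0 and 27.1 CPM in PLD, a range below all WT values. The group means were 70.1 ± 8.80 and 24.2 ± 6.76 CPM (SD, n = 3 each), and the fall was 1.53 ± 0.22 on the log2 scale (edgeR adjusted p = 0.000894). Slc4a1, the red cell exchanger, had at most 1 read in a library.

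The largest rise of the family was that of Slc4a9, encoding AE4, a transporter known from kidney intercalated cells whose mode of transport is debated. It had 3.66, 2.30 and 2.41 CPM in WT and 36.5, 17.7 and 19.6 CPM in PLD. PLD replicate 1 was the highest, and the groups were far apart. The gene rose 8.82-fold, by 3.13 ± 0.34 on the log2 scale (edgeR adjusted p = 0.000309).

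Slc4a11, which carries protons or hydroxide rather than bicarbonate and is known from corneal endothelium (mm10 chromosome 2, 130684113 to 130697519), showed the same order of libraries within PLD. It had 2.54, 2.24 and 3.64 CPM in WT and 27.7, 16.2 and 16.3 CPM in PLD, and no values overlapped. Its rise was 7.15-fold, or 2.83 ± 0.30 on the log2 scale (edgeR adjusted p = 0.000255).

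Sodium-coupled bicarbonate transporters were lower or did not pass. Slc4a4, encoding the cotransporter NBCe1 (mm10 chromosome 5, 88886486 to 89239653), had 196, 37.1 and 44.4 CPM in WT and 93.5, 60.2 and 77.9 CPM in PLD. WT replicate 1 was the highest of all libraries and the other WT libraries were the lowest, below every PLD library. The log2 fold change was -0.26 ± 0.59 with all libraries (edgeR adjusted p = 0.729). It turned to 0.92 without WT replicate 1 (edgeR adjusted p = 0.00846) and to 0.76 without both libraries numbered 1 (edgeR adjusted p = 0.00178), so its direction rests on 1 library.

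Slc4a7, encoding the electroneutral cotransporter NBCn1, had 40.7, 45.6 and 45.3 CPM in WT and 27.8, 18.8 and 24.2 CPM in PLD. The groups did not overlap, and the fall was 0.90 ± 0.15 on the log2 scale (edgeR adjusted p = 0.00214). Slc4a8, a sodium-driven chloride-bicarbonate exchanger gene, averaged 5.85 CPM in WT and 3.23 CPM in PLD and fell by 0.86 on the log2 scale, a call lost after a gene length correction (edgeR adjusted p = 0.0743). Slc4a5 and Slc4a10 had at most 6 and 4 reads in a library.

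Among sodium-proton exchangers, Slc9a5, a plasma membrane exchanger gene known from neurons, had 7.32, 7.37 and 7.54 CPM in WT and 2.89, 3.17 and 2.702 CPM in PLD. Its groups were narrow and apart, and it fell by 1.34 ± 0.18 on the log2 scale (edgeR adjusted p = 0.000749).

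The epithelial exchangers Slc9a2, Slc9a3 and Slc9a4, known from gut, kidney and stomach, were by far highest in WT replicate 1, and Slc9a3 also stood apart in PLD replicate 1. Slc9a3 had 466, 2 and 5 reads in WT and 27, 2 and 0 reads in PLD, and was not tested. Slc9a2 had a mean of 3.16 CPM in WT and 0.658 in PLD, and its log2 fold change of -2.26 became -0.029 without WT replicate 1. Slc9a4 had means of 5.25 and 0.633 CPM, and its log2 fold change of -3.04 became -0.27 without that library. Neither passed with all libraries (edgeR adjusted p = 0.107 and 0.0738), and both passed without WT replicate 2 (edgeR adjusted p = 0.0296 and 0.0189).

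**Figure D4:**
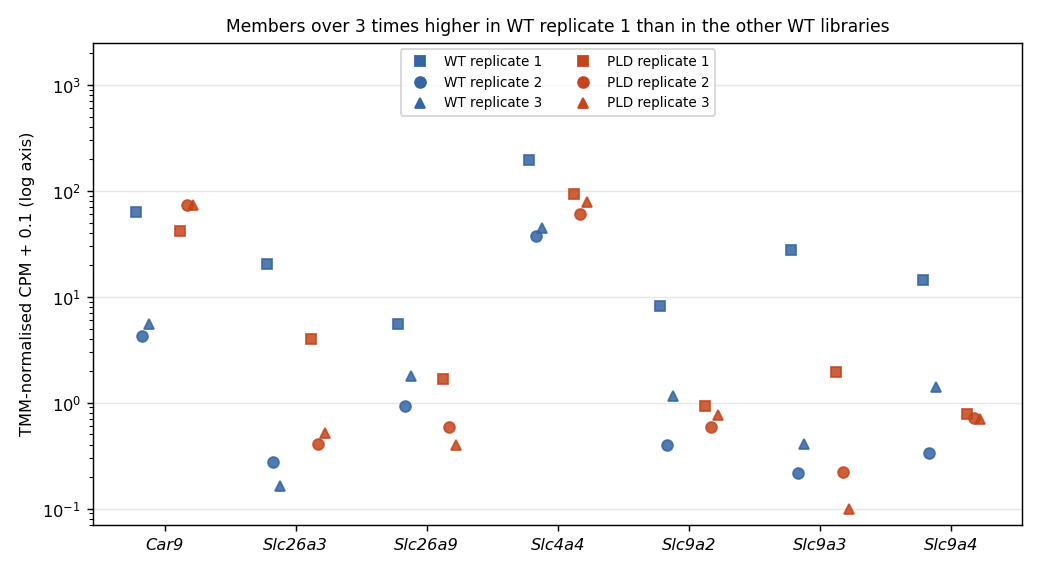
TMM-normalised CPM plus 0.1 (log axis) of the 7 acid-base genes more than 3 times higher in WT replicate 1 (blue square) than in the other WT libraries, one marker per library. The blue square lies above the other blue markers for all 7, within the PLD range for Car9 and above every PLD library for the other 6.

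Of the exchangers inside the cell, the endosomal Slc9a9 (ENSMUSG00000031129.9, mm10 chromosome 9, 94669909 to 95230445) fell furthest. It had 29.3, 32.3 and 41.1 CPM in WT and 5.37, 7.26 and 11.5 CPM in PLD, with every PLD value below every WT value. Mean levels were 34.2 ± 6.17 CPM in WT and 8.03 ± 3.12 CPM in PLD (SD, n = 3 each), which is 4.26-fold lower, or -2.09 ± 0.27 on the log2 scale (edgeR adjusted p = 0.000692). Slc9a7, of the trans-Golgi network, fell from a mean of 3.55 to 1.47 CPM (-1.27 on the log2 scale).

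Slc9a8, of the Golgi, had 47.8, 43.8 and 49.4 CPM in WT and 74.0, 49.1 and 55.5 CPM in PLD, with PLD replicate 2 inside the WT range. Its log2 fold change of 0.34 ± 0.16 did not pass (edgeR adjusted p = 0.103), but passed without PLD replicate 2 (edgeR adjusted p = 0.0444).

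Of the chloride cotransporters, Slc12a2, encoding the basolateral sodium-potassium-chloride cotransporter NKCC1 that loads secretory epithelia with chloride, rose slightly. It had 110.2, 79.7 and 89.5 CPM in WT and 127, 112 and 131 CPM in PLD. The lowest PLD value was just above the highest WT value, WT replicate 1. The log2 fold change was 0.40 ± 0.14 (edgeR adjusted p = 0.0389). The call was lost without PLD replicate 1 (edgeR adjusted p = 0.0618), PLD replicate 3 (0.0950), WT replicate 2 (0.116) or WT replicate 3 (0.117). The kidney cotransporter genes Slc12a1 and Slc12a3 had at most 2 and 5 reads in a library.

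Potassium-chloride cotransporters carry chloride out of cells. Slc12a4, encoding the widely expressed KCC1 (mm10 chromosome 8, 105943590 to 105966097), had 93.9, 115 and 114 CPM in WT and 44.6, 56.2 and 54.5 CPM in PLD, with no overlap. It fell by 1.06 ± 0.13 on the log2 scale (edgeR adjusted p = 0.000523). The ratio of Slc12a2 to Slc12a4 per kb was 0.460, 0.271 and 0.308 in WT and 1.116, 0.779 and 0.940 in PLD, higher in every PLD library than in any WT library.

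Slc12a5, encoding the neuronal KCC2 (mm10 chromosome 2, 164960802 to 164999731), had 21.2, 15.6 and 24.3 CPM in WT and 2.82, 3.84 and 3.30 CPM in PLD. All PLD libraries were low and close together, and the log2 fold change was -2.61 ± 0.22 (edgeR adjusted p = 0.000112).

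Slc12a7, encoding KCC4, was the most abundant Slc12a gene in PLD per kb and had 181, 145 and 147 CPM in WT and 193, 176 and 169.6 CPM in PLD. WT replicate 1 lay within the PLD range, and the log2 fold change of 0.19 ± 0.12 did not pass (edgeR adjusted p = 0.221) except after a gene length correction (0.51, edgeR adjusted p = 0.0136). Slc12a8, a distant family member, had 47.3, 28.5 and 40.7 CPM in WT and 39.8, 73.1 and 65.2 CPM in PLD, where PLD replicate 1 lay below WT replicates 1 and 3. The difference, 0.61 ± 0.26 on the log2 scale, did not pass (edgeR adjusted p = 0.0777). It was 0.84 without PLD replicate 1 (edgeR adjusted p = 0.0103) and 1.00 without both libraries numbered 1 (edgeR adjusted p = 0.000626). Slc12a9, which binds other cotransporters of the family, had 31.3, 25.5 and 27.0 CPM in WT and 21.2, 24.7 and 23.8 CPM in PLD. PLD was below WT in every library, yet the log2 fold change of -0.26 ± 0.12 did not pass (edgeR adjusted p = 0.102).

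The Slc26a family held the largest fall of all 55 genes. Slc26a10 (ENSMUSG00000040441.12, mm10 chromosome 10, 127171393 to 127180645) had 67.0, 96.6 and 105 CPM in WT and 0.964, 3.17 and 4.92 CPM in PLD. Even the lowest WT library, replicate 1, was far above the highest PLD library. The mean went from 89.4 ± 19.9 to 3.02 ± 1.98 CPM, 29.6-fold lower, with a difference of -4.87 ± 0.46 on the log2 scale (edgeR adjusted p = 0.000172). Per kb it was 5th of the 55 genes in WT and 28th in PLD. It shares 15.8% of its exon bases with B4galnt1 on the other strand, whose log2 fold change was 0.55, the opposite direction.

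Slc26a2, a sulphate transporter gene known from cartilage, was the only Slc26a gene called higher. It had 57.1, 34.5 and 33.6 CPM in WT and 172, 81.6 and 95.8 CPM in PLD. PLD replicate 1 was the highest and WT replicate 1 the highest of its group, with no overlap. The log2 fold change was 1.48 ± 0.32 (edgeR adjusted p = 0.00634). Slc26a2 made up 7.09 to 13.8% of the family's summed level per kb in WT and 50.0 to 72.5% in PLD, and Slc26a10 44.4 to 63.8% and 1.11 to 7.03%. That sum was 33.4, 33.5 and 38.3 CPM per kb in WT and 19.2, 12.6 and 15.5 CPM per kb in PLD. The share of Slc26a2 thus rose in part through the smaller sum.

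Slc26a1, another sulphate transporter gene, known from liver and kidney, had 16.1, 11.1 and 24.6 CPM in WT and 1.03, 3.48 and 4.92 CPM in PLD. PLD replicate 1 was the lowest, and the groups were apart. The fall was 2.44 ± 0.51 on the log2 scale (edgeR adjusted p = 0.00504). Idua, which shares 141 exon bases with Slc26a1 on the other strand, also fell, by 1.15. Slc26a11, a sulphate transporter of lysosomes and other membranes, had 15.2, 17.2 and 15.8 CPM in WT and 11.98, 13.5 and 16.9 CPM in PLD, which overlapped, and a difference of -0.18 ± 0.16 on the log2 scale (edgeR adjusted p = 0.356).

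The chloride-bicarbonate exchangers and chloride channels of the family were low. Slc26a6, encoding an apical anion exchanger of pancreatic duct and gut, fell from a mean of 4.88 to 2.37 CPM (-1.04 on the log2 scale), and Slc26a7 from 3.09 to 0.467 CPM (-2.67). Slc26a9, a chloride channel gene of stomach and airway, had means of 2.64 and 0.791 CPM. Its log2 fold change of -1.76 did not pass (edgeR adjusted p = 0.104) and was -0.68 without WT replicate 1, -2.72 without PLD replicate 1 (edgeR adjusted p = 0.0380) and -1.64 without both (edgeR adjusted p = 0.0224). The gut exchanger Slc26a3 had 342, 3 and 1 reads in WT and 56, 5 and 7 reads in PLD, highest in replicate 1 of both groups, and was not tested. Slc26a4, Slc26a5 and Slc26a8 had at most 7, 3 and 9 reads in a library.

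The start regions of the genes with the largest fall in each transporter family are shown in the same way as those of the carbonic anhydrases, with the same motifs in capitals. They lie at chr10:127180533-127180832 on the minus strand (Slc26a10), chr2:164960596-164960895 on the plus strand (Slc12a5), chr9:94669642-94669941 on the plus strand (Slc9a9) and chr1:75546212-75546511 on the plus strand (Slc4a3) of GRCm38.p6. Slc26a10 held a TATA box, Slc12a5 a GC box and an AP-1 element, Slc9a9 an AP-1 element and Slc4a3 2 GC boxes.
Slc26a10: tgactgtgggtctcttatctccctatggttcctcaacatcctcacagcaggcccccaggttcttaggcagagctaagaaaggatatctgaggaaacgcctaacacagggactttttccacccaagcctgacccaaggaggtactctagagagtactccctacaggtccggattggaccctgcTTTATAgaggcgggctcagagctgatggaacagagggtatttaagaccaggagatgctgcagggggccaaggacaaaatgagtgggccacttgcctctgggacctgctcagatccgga
Slc12a5: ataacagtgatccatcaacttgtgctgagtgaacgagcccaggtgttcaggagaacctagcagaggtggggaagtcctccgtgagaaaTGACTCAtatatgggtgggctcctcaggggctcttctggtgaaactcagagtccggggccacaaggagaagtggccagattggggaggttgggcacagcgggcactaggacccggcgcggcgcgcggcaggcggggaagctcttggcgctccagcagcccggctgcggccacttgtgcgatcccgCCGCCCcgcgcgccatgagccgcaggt
Slc9a9: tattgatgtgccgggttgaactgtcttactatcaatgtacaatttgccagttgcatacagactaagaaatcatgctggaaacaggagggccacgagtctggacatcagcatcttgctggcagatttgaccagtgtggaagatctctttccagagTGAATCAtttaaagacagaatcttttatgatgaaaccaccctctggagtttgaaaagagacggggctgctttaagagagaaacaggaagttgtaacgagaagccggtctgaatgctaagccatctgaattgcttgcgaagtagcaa
Slc4a3: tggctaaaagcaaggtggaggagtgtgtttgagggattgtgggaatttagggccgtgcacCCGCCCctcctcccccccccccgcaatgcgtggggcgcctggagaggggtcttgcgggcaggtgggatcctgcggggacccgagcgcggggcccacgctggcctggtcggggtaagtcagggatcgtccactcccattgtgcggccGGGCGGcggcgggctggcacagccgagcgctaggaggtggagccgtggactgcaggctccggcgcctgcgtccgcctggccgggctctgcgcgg
CG dinucleotides numbered 4, 21, 6 and 28 in that order, so the 4 windows ranged from below to well above the median of 7, and none of the motifs was in all 4.

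Beside these transporters, genes that work with them were read from lists chosen with earlier results of these data known. Of 37 acid-base and chloride partner genes 32 were tested, 16 were higher and 8 lower, where 55.4% of all tested genes were called, 27.0% higher and 28.4% lower. Their median log2 fold change was 0.31 against 0.0060 for all tested genes. The calcium-gated chloride channel gene Ano1 rose by 2.56 ± 0.16 on the log2 scale, while Cftr, the cAMP-gated channel gene of bile duct secretion and singled out for that role after its values were seen, fell by 2.24 ± 0.39. Cftr had 47.5, 83.3 and 121 CPM in WT and 22.7, 19.8 and 10.7 CPM in PLD, and WT replicate 1 was the lowest of its group. The potassium channel genes Kcnn4 (2.18), Kcnq1 (1.80) and Kcne3 (1.68) rose, as did the sodium pump subunit gene Atp1b1 (1.45), the chloride channel gene Clcn2 (1.22), the lactate and proton transporter genes Slc16a1 (1.25) and Slc16a3 (1.31) and Bsg (1.02), which encodes their chaperone. Gpr4, a proton-sensing receptor gene of endothelial cells, fell by 2.12.

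Of 26 scaffold and regulator genes 24 were tested, with 9 higher, 9 lower and a median of 0.056, against the same 27.0% higher and 28.4% lower among all tested genes. Ezr, encoding ezrin, which ties membrane proteins to actin in epithelia, rose by 2.46 ± 0.18 on the log2 scale, and its relative Msn fell by 2.52. Ahcyl2, whose product binds bicarbonate transporters, rose by 1.31. Slc9a3r2, a scaffold gene of sodium-proton exchangers, fell by 1.59, and Chp2 and Tesc, whose products bind such exchangers, by 1.99 and 1.39. In the same list, Chp1 rose by 0.46 (means of 212 CPM in WT and 292 CPM in PLD) and Tescl by 2.10 (0.597 and 2.59 CPM). Slc9a3r1 did not pass (0.21, edgeR adjusted p = 0.117). The kinase genes Sgk1 and Wnk2 fell by 1.77 and 1.62, and the ubiquitin ligase gene Nedd4l and the phosphatase gene Ppp1ca rose by 1.07 and 0.69.

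Markers of other cell types moved in the same libraries. The endothelial list had a median log2 fold change of -3.35 with 12 of 12 genes lower, and the fibroblast, stellate and smooth muscle list -1.93 with 10 of 12 lower. Of the 10 neuron and glia markers 9 were tested, 8 were lower and 1 higher (median -3.27, summed 64.6 to 102 CPM in WT and 28.6 to 38.6 CPM in PLD), beside the falls of the genes known from neurons, Slc12a5, Slc9a5 and Car7. Of the pan-neuronal genes, Tubb3 had 3.07, 5.66 and 4.70 CPM in WT and 2.48, 1.89 and 2.76 CPM in PLD and Rbfox3 1.00 to 1.42 CPM in WT and 0 to 0.360 CPM in PLD, both lower in PLD (edgeR adjusted p = 0.0331 and 0.0103), and Snap25 was at or under 0.185 CPM in all libraries. Of 11 erythroid and platelet markers 2 were tested and 1 was lower (12.6 to 14.3 CPM in WT and 8.68 to 10.3 CPM in PLD), and the 4 globin genes were at 0.618 CPM or less in every library. Hepatocyte markers were higher for 3 and lower for 5 of 12 (summed 1574 to 2481 CPM in WT and 2980 to 6753 CPM in PLD), mesothelial markers higher for 3 and lower for 3 of 7 (64.8 to 69.6 and 902 to 1236 CPM), macrophage markers higher for 2 and lower for 2 of 10 (867 to 1095 and 691 to 936 CPM), and lymphocyte markers lower for 1 of 3 tested among 10 (44.7 to 47.3 and 16.0 to 38.01 CPM). In PLD the mesothelial sum was mostly Msln, at 738 to 1156 CPM against 15.6 to 18.4 CPM in WT. Alb made up a large part of the hepatocyte sum, at 1085 to 1888 CPM in WT and 1303 to 5512 CPM in PLD. The part of any of these cell types in the falls and rises of acid-base genes was not tested.

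Values were also read relative to Epcam, the gene of the selected surface protein. Epcam itself was higher in PLD, with 394, 254 and 417 CPM in WT and 1363, 973 and 919 CPM in PLD. Per 100 Epcam reads, 3 of the 40 tested genes had all PLD libraries above all WT libraries, 33 had all PLD libraries below, and 4 overlapped. Among all tested genes 1.94% lay above and 89.0% below, since on this scale a gene with the same CPM in both groups is lower in PLD. The 3 acid-base genes above were Car4 (WT 0.979 to 2.08 reads, PLD 3.49 to 13.8 reads), Slc4a9 (0.578 to 0.928 and 1.82 to 2.68) and Slc4a11 (0.644 to 0.882 and 1.66 to 2.03). Car2, Car9, Car12 and Slc26a2 overlapped. Slc4a2 had 21.8 to 35.3 reads per 100 Epcam reads in WT and 5.62 to 10.5 in PLD, and Slc12a2 21.5 to 31.4 and 9.32 to 14.2. Epcam is 1 gene whose own level per cell may differ between the groups, so these ratios do not separate cell share from level per cell.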

How the data were processed

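Polyadenylated RNA of EpCAM-selected mouse cholangiocytes was sequenced on the BGISEQ-500 platform, per the labels' protocols. The authors deposited raw read counts per gene, made with featureCounts 1.6.0 on GENCODE vM25 of mm10 per the file headers. The command held no option for strand, multi-mapping or overlapping genes, so the strand of a read was not used. Reads in exons shared with another gene, on either strand, could have been lost to both. STAR 2.7.4a, SAMtools 1.12 and DESeq2 1.26.0 are named without settings, per the submitters' processing notes.

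Symbols came from GENCODE vM21 by gene ID (55141 of 55401 matched). Counts were tested with edgeR 4.0.16 in R 4.3.3: filterByExpr kept 15334 genes holding at least 99.8% of the reads of each library (about 10 reads, or 0.614 CPM, in 3 libraries), TMM factors ran from 0.922 to 1.04, and PLD was set against WT by edgeR's quasi-likelihood test with no covariate. P-values were adjusted over all tested genes by the Benjamini-Hochberg method, and an adjusted p under 0.05 is a call. The biological coefficient of variation was 0.196. A standard error is the log2 fold change divided by the square root of F. The floor of 3 reads covers counting error only. Replicates differed by more than sampling noise (chi-square per degree of freedom 9.72 to 63.9), so none were merged. The functions were tested on simulated data.

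Members and gene lists were chosen with earlier results of these data known. Tested members with a mean of at least 5 CPM are given in full, other tested members by group means and log2 fold change, and untested members by their highest count in a library. The values of 3 tested members are not reported here, though the counts include them. Of the partner lists up to 10 genes of smallest p with a mean of at least 5 CPM carry values. Cftr, Chp1, Tescl and Slc9a3r1 were added outside that rule after values were seen. Start regions are those of the largest rise and fall of each family by that level, as far as shown, and Car9 was added. The alternatives were RLE and upper-quartile factors, DESeq2 1.42.0, limma-voom 3.58.1, no filter, a filter of 1 CPM in 3 libraries, a replicate block, a gene length correction (loess, span 0.5) and leaving out each library, and both libraries numbered 1 were left out together after the data were seen.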

Additional observations from a re-analysis of the deposited data

How the results depend on the processing

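Of the 24 called acid-base genes, 22 kept their direction and call in all 15 alternatives, the exceptions being Slc12a2 and Slc4a8. The number of genes higher in PLD was 7 and ran from 6 to 11 when libraries were left out, 11 being the value without both libraries numbered 1 and 10 that without WT replicate 1. Slc4a4 turned positive under limma-voom (0.15), with the replicate block (0.15) and after the gene length correction (0.020), and ran from -0.63 to 0.92 when libraries were left out. Slc4a2 was 0.13 after the length correction and ran from -0.13 to 0.033 when libraries were left out. The cause was not tested.

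Whether replicate numbers pair the samples could not be settled. Deviations of same-numbered PLD and WT libraries correlated with r = 0.156, 0.0363 and 0.0613. PLD replicate 1 correlated best with WT replicate 1, while PLD replicates 2 and 3 correlated best with another number. With the replicate block 8 acid-base genes were higher and 18 lower, Car2 (edgeR adjusted p = 0.00466) and Slc26a9 (0.0165) being added. Calls also gained were Slc9a2 under DESeq2, Car9 and Car11 under limma-voom, Car11 with the 1 CPM filter, Car2, Slc12a8, Slc9a4 and the otherwise untested Car10 and Slc9a3 with no filter (9 higher, 20 lower), and Car11, Slc12a7 and Slc9a8 after the length correction. With 3 libraries a group, genes near the floor of 3 reads could not be judged.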
